A study of Mus musculus with 8 samples.

Results

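The 34 genes described here are genes by which macrophages are usually recognised, measured in mouse fat cultures. They were taken by symbol from a table of 22962 genes, in which all 34 had 1 row each, and 33 of them passed the filter on low values used for testing. For description they were divided into 16 lineage genes, which mark a cell as a macrophage or leukocyte, and 18 genes of function or state (Fc receptors, scavenger and efferocytic receptors, lipid-associated genes, genes of activation and recruitment, and the NADPH oxidase). Libraries came from 2 groups of wild-type (WT) mouse cells of the stromal vascular fraction of gonadal fat, 4 treated with DoxSa and 4 treated with DMSO, a solvent. The design dates either treatment of the differentiated adipocytes to day 6. The labels name the cell type as mature adipocyte, do not spell out DoxSa, and belong to a series titled for 1-deoxysphingolipids. The sources used here state no dose, duration, sex, strain, age or number of animals, and do not say whether the libraries are separate cultures or animals. The p-values therefore measure only the spread between these samples, which may be technical.

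Macrophages are the tissue phagocytes of the myeloid lineage. In fat they lie among the adipocytes, clear dead cells and lipid, and are part of the stromal vascular fraction, the mixture of preadipocytes, vascular cells and leukocytes that is left when buoyant adipocytes are removed from digested tissue. Their identity rests on the transcription factor PU.1, encoded by Spi1, and on survival signals through the CSF1 receptor, encoded by Csf1r. Textbook accounts set an inflammatory state, marked by genes such as Nos2 and Tnf, against a repair state marked in the mouse by Arg1 and Mrc1, although cells in tissue commonly mix both. In a bulk library fewer cells of a type and less RNA per cell cannot be told apart, so each level below is a property of the whole culture.

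Levels were given by the authors as FPKM, the reads of a gene divided by its length and by the reads of the library, so levels of different genes can be compared. Recovered library totals were between 39213008 and 41365861 reads, and 18726 to 19108 genes were above 0 in a library. Changes are given as log2 fold changes of DoxSa over DMSO on log2(FPKM + 1), with the standard error (SE) of limma, a linear model fitted over all tested genes. A gene was said to rise or fall at a Benjamini-Hochberg adjusted p under 0.05 over the 12060 genes that averaged 0.5 FPKM or more. Adipocyte markers were abundant in every library (summed level 11578 to 12224 FPKM in DoxSa and 11511 to 11893 FPKM in DMSO), so the cultures held both adipocyte and macrophage RNA. Most of that sum was Fabp4, with 8852 ± 293 FPKM in DoxSa and 8698 ± 203 FPKM in DMSO (mean ± SD, n = 4 each), a gene that macrophages also express. Of the 8 markers 0 were called with limma or voom, but 7 had a log2 fold change below 0 (6 after quantile normalization), with a median of -0.06. Of all tested genes 56.7% had a log2 fold change above 0. Cidec, a lipid droplet protein, was lower at an unadjusted p under 0.05 with all DoxSa libraries below all DMSO libraries, and the part of these shifts in the macrophage results was not tested.

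The macrophage genes were strongly expressed in both groups. Lyz2, which encodes the lysozyme of macrophages and neutrophils, was the fourth most abundant gene in either group, with rank 4 in DoxSa and rank 4 in DMSO. It was at 4928, 5263, 4795 and 5219 FPKM in DoxSa 1 to 4, against 4552, 4542, 5100.4 and 4328 FPKM in DMSO 1 to 4. The groups overlapped, because DMSO 3 lay above DoxSa 1 and DoxSa 3. The near copy Lyz1 was at 7.05 to 12.7 FPKM in DoxSa, against 3.90 to 8.57 FPKM in DMSO, and the rule for counting reads shared by the copies is not known here. Cd68, the endolysosomal glycoprotein used as a pan-macrophage stain, had 397 ± 9.60 FPKM in DoxSa and 365 ± 28.4 FPKM in DMSO (mean ± SD, n = 4 each, here and below). Tyrobp, an adaptor through which activating receptors signal, had 323 ± 13.8 FPKM in DoxSa and 314 ± 32.1 FPKM in DMSO. Fcer1g, the adaptor shared by Fc receptors, was at 290.0 to 309 FPKM in DoxSa, against 258 to 304 FPKM in DMSO. Mrc1, the mannose receptor CD206, had 255 ± 14.1 FPKM in DoxSa and 249 ± 11.3 FPKM in DMSO. The F4/80 antigen gene Adgre1 stood at rank 348 in DoxSa and rank 363 in DMSO of all genes by mean level.

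At the low end were Cd86, a costimulatory ligand for T cells, with 3.13 ± 0.305 FPKM in DoxSa and 2.91 ± 0.186 FPKM in DMSO, and Ccr2, the chemokine receptor of recruited monocytes. Ccr2 was at 0.0921, 0.0426, 0.0414 and 0.0512 FPKM in DoxSa 1 to 4, against 0.0259, 0.0702, 0.104 and 0.0930 FPKM in DMSO 1 to 4, which came from 5 to 20 reads a library. That is too low for the filter, so Ccr2 was not tested, and the groups overlapped. Cd163 and Mertk, a haemoglobin scavenger receptor and a receptor for dying cells, were between 6.41 and 8.47 FPKM over all libraries. Summed over the 34 genes, the level was 7887, 8329, 7844 and 8325 FPKM in DoxSa 1 to 4, against 7520, 7211, 8098 and 7031 FPKM in DMSO 1 to 4. The groups overlapped in this sum, which Lyz2 dominates, and DMSO 2 and DMSO 4 were lowest. As a share of all FPKM, the genes made up 1.88% to 2.0% of a DoxSa library and 1.71% to 1.93% of a DMSO library.

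**Figure D1:**
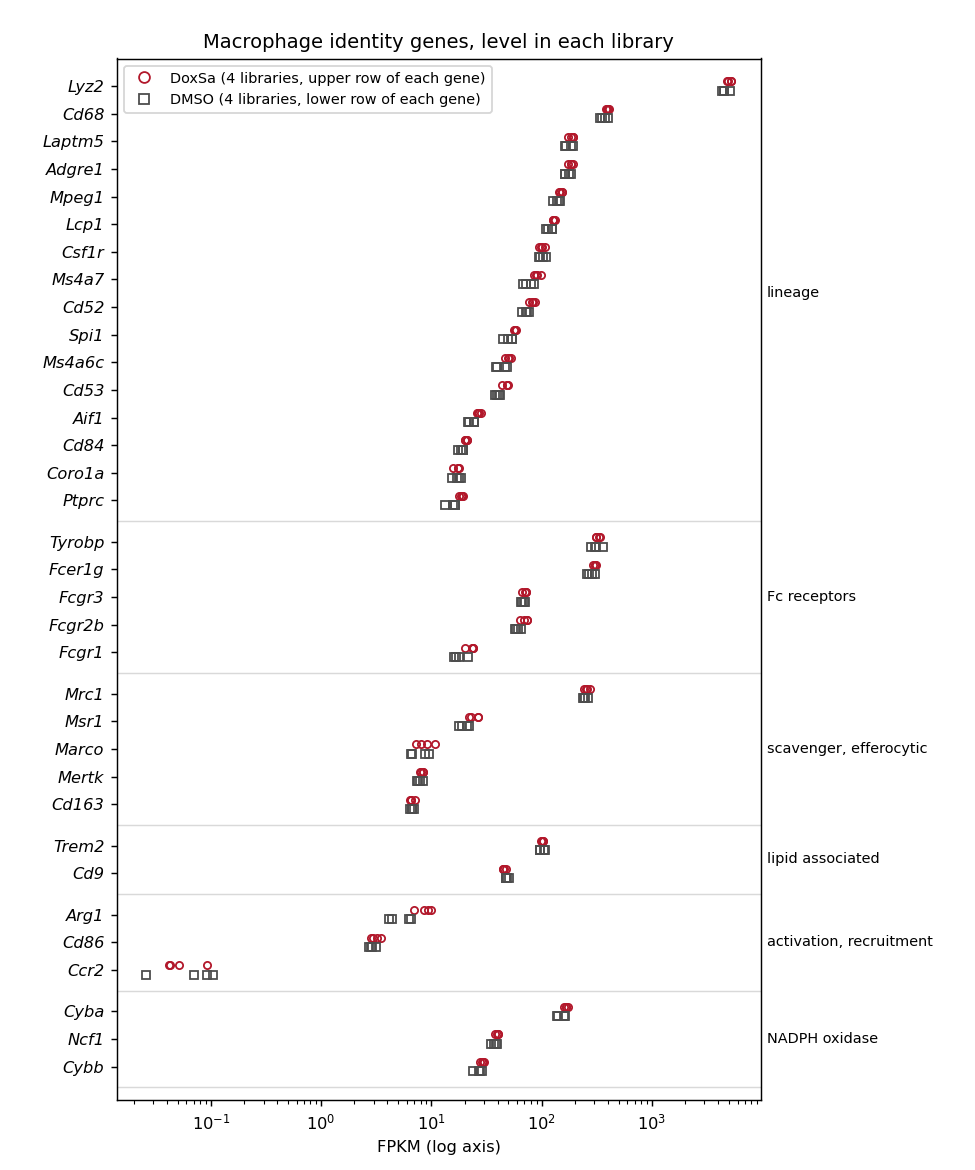
Level of each of the 34 macrophage genes in FPKM on a log axis, with 1 red circle for each of the 4 DoxSa libraries and 1 grey square for each of the 4 DMSO libraries, grouped by role. Levels run from Ccr2, at most 0.104 FPKM in a library, to Lyz2 at 4328 FPKM or more, and for most genes the groups lie close together.

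After DoxSa, 9 of the 33 tested genes rose and 0 fell, where 3.88% of all 12060 tested genes rose and 2.02% fell. The macrophage genes were chosen with earlier results of these data known, so these counts are descriptions. On the lower side 1 gene (Cd9) had an unadjusted p under 0.05, and voom, a limma test on the recovered reads, also called 0. The 9 that rose were Cd53, Aif1, Ptprc, Cd52 and Ms4a7 among the lineage genes and Arg1, Fcgr1, Fcgr2b and Msr1 among the others. The changes were small, with a median log2 fold change of 0.12 over the 33 genes, against 0.01 over all tested genes, whose middle part between the quartiles ran from -0.04 to 0.07. Of the 33 genes, 30 had a log2 fold change above 0, against 56.7% of all tested genes; median-of-ratios scaling and quantile normalization left 28. All 4 DoxSa libraries lay above all 4 DMSO libraries in 10 of the 33, where 7.8% of all tested genes did so, and below them in 0, where 4.71% of all tested genes did so. The count of 9 became 2 without DoxSa 1, DoxSa 2 or DoxSa 3, 3 without DMSO 2, 5 without DoxSa 4, DMSO 3 or DMSO 4, and 11 without DMSO 1. It was 4 with median-of-ratios scaling, 5 with quantile normalization and 0 without the filter on low values. In the fit without the filter 15 of the 34 genes had an unadjusted p under 0.05 in limma, a count not made there over all genes. In the main limma fit an unadjusted p under 0.05 was common, in 2393 of the 12060 tested genes and 19 of the 33 macrophage genes.

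**Figure D2:**
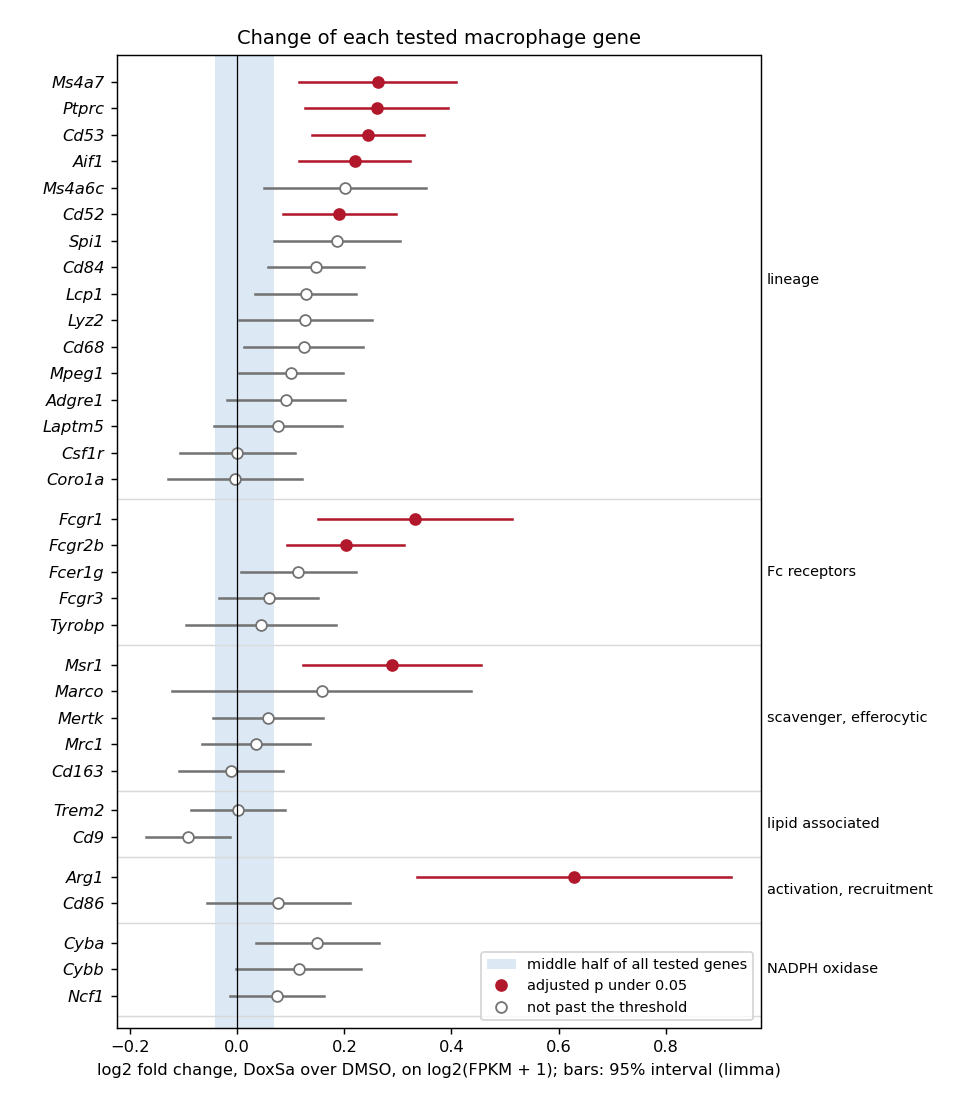
Log2 fold change of DoxSa over DMSO on log2(FPKM + 1) for the 33 tested macrophage genes, with 95% intervals from limma, filled red where the adjusted p was under 0.05, and the band between the quartiles of all tested genes in blue. Arg1 lies farthest to the right at 0.63, Cd9 farthest to the left at -0.09, and 9 genes are filled.

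Of the 16 lineage genes, 5 rose, where 3.88% of all tested genes did so. A log2 fold change above 0 was seen in 15 of the 16, against 56.7% of all tested genes. That count was 14 after scaling by median of ratios and 13 after quantile normalization, and the median was 0.14. Cd53, a tetraspanin of leukocyte membranes, was at 48.7, 49.1, 43.3 and 48.8 FPKM in DoxSa 1 to 4, against 41.9, 39.3, 40.7 and 37.9 FPKM in DMSO 1 to 4. Every DoxSa library was above every DMSO library, although DoxSa 3 stood apart below the other DoxSa libraries. The log2 fold change was 0.24 ± 0.05 (SE, here and below), with an adjusted p of 0.0134. Of the 9 genes, it was the only one called with each library left out in turn, at an adjusted p of up to 0.0469. Of the 14 alternatives, 13 kept the call, the exception being the fit without the filter at an adjusted p of 0.0652. Aif1, the calcium-binding protein IBA1 of macrophages and microglia, was at 26.8, 26.5, 28.2 and 26.2 FPKM in DoxSa 1 to 4, against 24.2, 21.7, 24.4 and 21.7 FPKM in DMSO 1 to 4. Here too the groups did not overlap, and DMSO 2 and DMSO 4 were lowest. Its log2 fold change was 0.22 ± 0.05 (adjusted p = 0.0206), and without DoxSa 1, DoxSa 2, DoxSa 3 or DMSO 2 its adjusted p was 0.0516 to 0.0616. Of the 14 alternatives, 9 kept the call on Aif1, which was also lost with no filter (adjusted p = 0.0802).

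Ptprc, which encodes the leukocyte common antigen CD45, was at 19.2, 17.8, 18.5 and 18.9 FPKM in DoxSa 1 to 4, against 15.6, 13.2, 16.3 and 16.5 FPKM in DMSO 1 to 4. DMSO 2 was the lowest library, and DMSO 4 the nearest to the DoxSa libraries, which all lay above it. The log2 fold change was 0.26 ± 0.06 (adjusted p = 0.0301), and without DoxSa 1, DoxSa 2, DoxSa 3 or DoxSa 4 its adjusted p was 0.0556 to 0.0867. The Ptprc call was also lost with median-of-ratios scaling (adjusted p = 0.052), quantile normalization (adjusted p = 0.0671) and no filter (adjusted p = 0.124) and held in 7 of 14 alternatives. Ms4a7, a membrane protein of the MS4A family found on mature macrophages, was at 86.1, 99.1, 88.9 and 90.8 FPKM in DoxSa 1 to 4, against 80.0, 68.0, 84.7 and 71.7 FPKM in DMSO 1 to 4. No DMSO library reached the lowest DoxSa library, DoxSa 1 and DMSO 3 being the nearest pair. Its log2 fold change was 0.26 ± 0.07 (adjusted p = 0.0419), and without DoxSa 1, DoxSa 2, DoxSa 3, DoxSa 4, DMSO 2 or DMSO 4 its adjusted p was 0.0607 to 0.122. The Ms4a7 call was also lost with median-of-ratios scaling (adjusted p = 0.0524), no filter (adjusted p = 0.168) and the replicate block (adjusted p = 0.0862) and held in 5 of 14 alternatives. Cd52, a small lipid-anchored glycoprotein of leukocytes, was at 81.8, 83.4, 87.4 and 77.6 FPKM in DoxSa 1 to 4, against 76.6, 66.5, 72.6 and 73.3 FPKM in DMSO 1 to 4. The groups did not overlap, and DoxSa 4 and DMSO 1 were the nearest pair. The log2 fold change was 0.19 ± 0.05 (adjusted p = 0.0412), and without DoxSa 1, DoxSa 2, DoxSa 3, DMSO 2, DMSO 3 or DMSO 4 its adjusted p was 0.0637 to 0.11. The Cd52 call was also lost with median-of-ratios scaling (adjusted p = 0.0698), quantile normalization (adjusted p = 0.0702), no filter (adjusted p = 0.139) and the replicate block (adjusted p = 0.0657) and held in 4 of 14 alternatives.

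Spi1 itself, the gene of PU.1, was at 58.1, 57.8, 56.9 and 55.8 FPKM in DoxSa 1 to 4, against 53.5, 49.4, 53.5 and 44.6 FPKM in DMSO 1 to 4. All DoxSa libraries lay above all DMSO libraries, yet the log2 fold change of 0.19 ± 0.05 did not pass the threshold (adjusted p = 0.0676). It passed without DMSO 1 and in voom, and its adjusted p ranged from 0.0348 to 0.198 over the 14 alternatives. Csf1r, which macrophages need to survive, was at 95.7, 99.1, 101 and 107 FPKM in DoxSa 1 to 4, against 103, 96.3, 109 and 94.6 FPKM in DMSO 1 to 4. The DoxSa libraries lay within the range of the DMSO libraries, and the log2 fold change was 0.00042 with a 95% interval of -0.11 to 0.11; scaling by median of ratios or by quantiles turned its sign, as did leaving out DoxSa 3, DoxSa 4, DMSO 2 or DMSO 4. Adgre1 was at 172, 183, 185 and 191 FPKM in DoxSa 1 to 4, against 177, 162, 186 and 163 FPKM in DMSO 1 to 4. The groups overlapped, and the log2 fold change was 0.09 ± 0.05 (adjusted p = 0.355).

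The other 8 lineage genes did not pass the threshold. For Lyz2 and Cd68 the log2 fold changes were 0.13 ± 0.06 for Lyz2 (below 0 after quantile normalization) and 0.12 ± 0.05 for Cd68, with adjusted p = 0.243 and 0.198. Cd84, an adhesion receptor of the SLAM family, and Lcp1, the actin-bundling protein of leukocytes, had all DoxSa libraries above all DMSO libraries. Cd84 was at 20.3 to 21.2 FPKM in DoxSa, against 17.3 to 19.5 FPKM in DMSO (adjusted p = 0.0597, called by voom), and Lcp1 was at 127 to 131 FPKM in DoxSa, against 111 to 126 FPKM in DMSO (adjusted p = 0.118). In Ms4a6c, another MS4A gene, Laptm5, a lysosomal membrane protein, and Mpeg1, the pore-forming perforin-2, the groups overlapped, with log2 fold changes of 0.20 ± 0.07 for Ms4a6c, 0.08 ± 0.05 for Laptm5 and 0.10 ± 0.04 for Mpeg1 and an adjusted p of 0.125 or more. Coro1a, the actin regulator coronin 1A of leukocytes, had a 95% interval of -0.13 to 0.12 around a log2 fold change of -0.0045, whose sign changed when DoxSa 3, DMSO 1 or DMSO 3 was left out. Reads of Ms4a6c could be split with its close relatives Ms4a6b and Ms4a6d under a counting rule that is not known here. Ms4a6d was more abundant, with 135 ± 5.09 FPKM in DoxSa and 115 ± 5.82 FPKM in DMSO, and rose with a log2 fold change of 0.23 ± 0.04 (adjusted p = 0.011), its groups not overlapping. Ms4a6b had 45.2 ± 3.81 FPKM in DoxSa and 37.7 ± 3.99 FPKM in DMSO and did not pass (adjusted p = 0.0717).

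The DMSO libraries differed among themselves in the lineage genes more than the DoxSa libraries did. The mean log2 level of the 16 genes, set against the mean over all 8 libraries, was 0.05, 0.09, 0.07 and 0.09 in DoxSa 1 to 4, against -0.01, -0.16, 0.01 and -0.14 in DMSO 1 to 4. All DoxSa libraries thus lay above all DMSO libraries, with DMSO 1 and DMSO 3 much nearer to them than DMSO 2 and DMSO 4. Of the 33 tested genes, the lowest of the 8 libraries was DMSO 4 in 17, DMSO 2 in 12, DMSO 3 in 2, DMSO 1 in 1 and DoxSa 3 in 1. The part of this spread between DMSO libraries in the result was not tested, beyond the counts without DMSO 2 and without DMSO 4 given above.

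**Figure D3:**
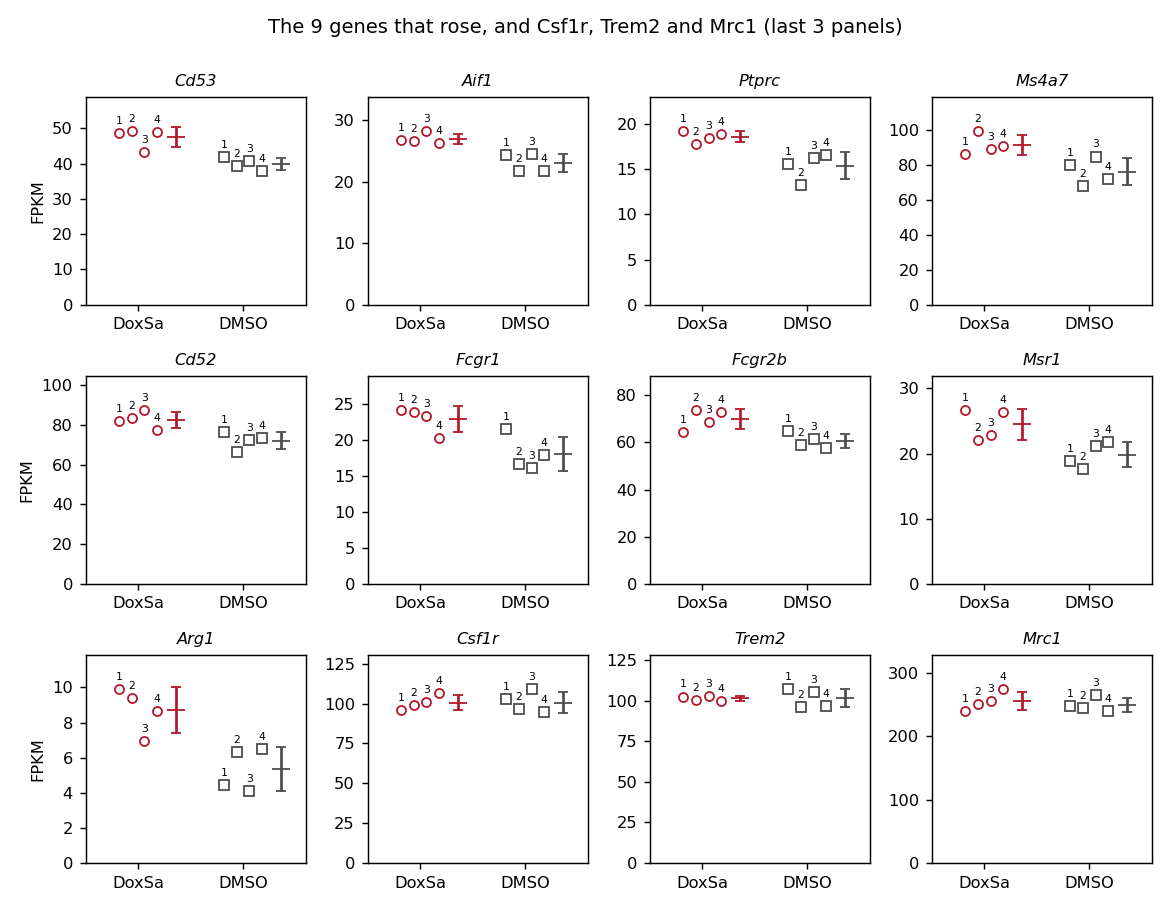
Level in FPKM (axes from 0) in each DoxSa library (red circles, numbered) and each DMSO library (grey squares, numbered), with the mean and SD of each group of 4 beside them, for the 9 genes that rose and for Csf1r, Trem2 and Mrc1. In 7 of the 9 no DMSO library reaches the lowest DoxSa library, Fcgr1 and Fcgr2b being the exceptions, and in the last 3 panels the groups overlap. Of all tested genes 7.8% were separated in that way, and the 9 were picked by a test on these same libraries.

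PU.1 binds purine-rich DNA around the core GAGGAA, so the 250 bases before the transcription start were read for that core on either strand (GAGGAA or TTCCTC). RefSeq windows of the build GRCm38.p6, which is not the build of the deposited table, were matched by Entrez gene number. They were found for 26 of the 34 genes, 31 windows in all, and not for Spi1, Csf1r, Adgre1, Cd52, Tyrobp, Msr1, Cd86 and Arg1. The core was in 11 of the 31 windows (35.48%), in 10 genes, against 7639 of all 32851 windows of that length (23.25%). It was in 4 of the 8 windows of genes that rose and in 7 of the 23 windows of the other genes, of which Ccr2 was not tested and the rest did not pass. A match is a description of these letters, not of a bound site. Shown are windows with a match from 3 genes that rose, Cd53, Aif1 and Fcgr1, and from 2 that did not pass, Trem2 and Mrc1, each written 5′ to 3′ on the strand of the gene and ending at the base before the start, with each match in capitals.
Cd53, chr3:106790150-106790399, minus strand: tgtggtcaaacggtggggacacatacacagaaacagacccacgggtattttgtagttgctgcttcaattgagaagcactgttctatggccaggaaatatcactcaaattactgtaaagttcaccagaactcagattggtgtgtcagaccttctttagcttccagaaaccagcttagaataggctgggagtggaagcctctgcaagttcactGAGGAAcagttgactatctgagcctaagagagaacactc
Aif1, chr17:35176053-35176302, minus strand: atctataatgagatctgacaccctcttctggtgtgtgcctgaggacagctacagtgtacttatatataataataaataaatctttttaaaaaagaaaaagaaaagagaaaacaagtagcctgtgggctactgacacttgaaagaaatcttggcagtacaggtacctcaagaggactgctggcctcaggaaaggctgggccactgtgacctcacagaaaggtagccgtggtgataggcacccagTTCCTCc
Fcgr1, chr3:96293970-96294219, minus strand: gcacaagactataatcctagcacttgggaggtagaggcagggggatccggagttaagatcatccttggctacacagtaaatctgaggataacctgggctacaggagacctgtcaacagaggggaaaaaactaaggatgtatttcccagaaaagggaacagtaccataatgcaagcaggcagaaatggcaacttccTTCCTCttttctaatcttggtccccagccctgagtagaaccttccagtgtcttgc
Trem2, chr17:48346151-48346400, plus strand: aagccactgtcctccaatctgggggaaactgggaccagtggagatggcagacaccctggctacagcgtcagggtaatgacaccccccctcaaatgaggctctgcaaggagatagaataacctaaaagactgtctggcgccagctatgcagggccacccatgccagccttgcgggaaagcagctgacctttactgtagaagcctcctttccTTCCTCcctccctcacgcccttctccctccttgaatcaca
Mrc1, chr2:14229164-14229413, plus strand: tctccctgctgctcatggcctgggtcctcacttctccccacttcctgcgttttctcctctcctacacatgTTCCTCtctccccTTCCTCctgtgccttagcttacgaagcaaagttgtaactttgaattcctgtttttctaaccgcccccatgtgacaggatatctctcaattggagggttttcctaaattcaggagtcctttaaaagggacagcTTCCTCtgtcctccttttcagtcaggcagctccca
The core lay 39 bases before the start in Cd53, 7 in Aif1, 55 in Fcgr1 and 40 in Trem2, and Mrc1 held 3 matches.

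Fc receptor genes encode proteins that bind the constant part of antibodies or carry the signal from it. Among them 2 of 5 rose, where 3.88% of all tested genes did so. Fcgr1, the high-affinity receptor CD64 for IgG, was at 24.1, 23.8, 23.3 and 20.2 FPKM in DoxSa 1 to 4, against 21.4, 16.6, 16.1 and 17.9 FPKM in DMSO 1 to 4. The DoxSa libraries were higher except that DMSO 1 lay above DoxSa 4. Its log2 fold change was 0.33 ± 0.08 (adjusted p = 0.0388), and without DoxSa 1, DoxSa 2, DoxSa 3, DMSO 2, DMSO 3 or DMSO 4 its adjusted p was 0.0728 to 0.111. The Fcgr1 call was also lost with quantile normalization (adjusted p = 0.0557) and no filter (adjusted p = 0.165) and held in 6 of 14 alternatives. Fcgr2b, the inhibitory receptor of the family, was at 64.3, 73.6, 68.8 and 73.0 FPKM in DoxSa 1 to 4, against 64.6, 59.0, 61.4 and 57.4 FPKM in DMSO 1 to 4. Again 1 pair overlapped, DMSO 1 being marginally above DoxSa 1. The log2 fold change was 0.20 ± 0.05 (adjusted p = 0.0383), and without DoxSa 2, DoxSa 3, DoxSa 4, DMSO 2, DMSO 3 or DMSO 4 its adjusted p was 0.0669 to 0.112. The Fcgr2b call was also lost with median-of-ratios scaling (adjusted p = 0.0522), no filter (adjusted p = 0.136) and the replicate block (adjusted p = 0.0962) and held in 5 of 14 alternatives. The activating receptor gene Fcgr3 was at 66.0 to 73.0 FPKM in DoxSa, against 65.2 to 70.7 FPKM in DMSO, with a log2 fold change of 0.06 ± 0.04 (adjusted p = 0.489). The adaptors Fcer1g and Tyrobp did not pass either, with log2 fold changes of 0.11 ± 0.05 for Fcer1g and 0.04 ± 0.06 for Tyrobp. Leaving out DMSO 2 turned the sign of Tyrobp. Fcgr2b, Fcgr3 and Fcgr4 are close relatives in sequence, so reads could be split between them.

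Of the 5 scavenger and efferocytic receptor genes, 1 rose, where 3.88% of all tested genes did so. Msr1, the class A scavenger receptor for modified lipoproteins, was at 26.6, 22.0, 22.9 and 26.4 FPKM in DoxSa 1 to 4, against 18.8, 17.7, 21.1 and 21.8 FPKM in DMSO 1 to 4. Every DoxSa library was above every DMSO library, DoxSa 2 and DMSO 4 being nearly level. The log2 fold change was 0.29 ± 0.08 (adjusted p = 0.0488), and without DoxSa 1, DoxSa 3, DoxSa 4, DMSO 1, DMSO 2 or DMSO 3 its adjusted p was 0.0567 to 0.133. The Msr1 call was also lost with median-of-ratios scaling (adjusted p = 0.0731), quantile normalization (adjusted p = 0.0736) and no filter (adjusted p = 0.186) and held in 5 of 14 alternatives. Mrc1 was at 240.4, 251, 256 and 274 FPKM in DoxSa 1 to 4, against 247, 244, 265 and 239 FPKM in DMSO 1 to 4. Its groups overlapped, although DoxSa 4 was the highest library, and the log2 fold change was 0.04 ± 0.05 with a 95% interval of -0.06 to 0.14. Marco, a scavenger receptor for bacteria and particles, was at 9.14, 10.9, 7.25 and 8.13 FPKM in DoxSa 1 to 4, against 6.48, 8.76, 9.51 and 6.63 FPKM in DMSO 1 to 4. Its groups overlapped, and its 95% interval was the widest of the 5, at -0.12 to 0.44. For Mertk the interval was -0.05 to 0.16, and for Cd163 it was -0.11 to 0.09 around a log2 fold change of -0.01 whose sign changed without DMSO 1 or DoxSa 2.

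The 2 lipid-associated genes did not pass the threshold, although Cd9 had an unadjusted p under 0.05. Trem2, the lipid-sensing receptor that pairs with the Tyrobp product, was at 103, 101, 103 and 99.9 FPKM in DoxSa 1 to 4, against 107, 96.3, 106 and 97.0 FPKM in DMSO 1 to 4. The DoxSa libraries lay within the span of the DMSO libraries, and the log2 fold change was 0.0018 with a 95% interval of -0.09 to 0.09, its sign turning under median-of-ratios scaling and without DoxSa 1, DoxSa 3, DMSO 2 or DMSO 4. Cd9, a tetraspanin found on lipid-laden macrophages and on many other cells, was at 45.0, 47.6, 44.3 and 45.4 FPKM in DoxSa 1 to 4, against 50.8, 48.6, 47.2 and 47.9 FPKM in DMSO 1 to 4. Only DoxSa 2 reached the DMSO range, and the log2 fold change was -0.09 ± 0.04 (adjusted p = 0.178), the lowest of the 33. The part of those other cells in its level was not tested.

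Arg1 had the largest log2 fold change of the 33. It encodes arginase 1, which turns arginine into ornithine and is a marker of the repair state in mouse macrophages. It was at 9.89, 9.38, 6.93 and 8.67 FPKM in DoxSa 1 to 4, against 4.42, 6.32, 4.09 and 6.50 FPKM in DMSO 1 to 4, from 246 to 604 reads a library. All DoxSa libraries were above all DMSO libraries, with DoxSa 3 lowest in its group and DMSO 2 and DMSO 4 highest in theirs. The mean level in DoxSa was 1.63 times that in DMSO, with a log2 fold change of 0.63 ± 0.13 and a 95% interval of 0.34 to 0.92 (adjusted p = 0.0195). On loss of a library, without DoxSa 1 or DoxSa 2 its adjusted p was 0.0628 to 0.0661. Of the 14 alternatives, 11 kept the call on Arg1, which was also lost with no filter (adjusted p = 0.121). Cd86 did not pass, with a log2 fold change of 0.08 ± 0.06 (adjusted p = 0.548).

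The phagocyte NADPH oxidase makes superoxide from the membrane subunits encoded by Cybb and Cyba and the cytosolic organiser encoded by Ncf1, and 0 of these 3 genes passed in limma, 1 of them having an unadjusted p under 0.05. No one of them was called with voom. Cyba was at 161 to 174 FPKM in DoxSa, against 139.5 to 162 FPKM in DMSO, with a log2 fold change of 0.15 ± 0.05 (adjusted p = 0.135). Cybb was at 27.6 to 30.3 FPKM in DoxSa, against 23.9 to 28.6 FPKM in DMSO (log2 fold change 0.11 ± 0.05), and Ncf1 was at 38.2 to 40.2 FPKM in DoxSa, against 35.0 to 39.3 FPKM in DMSO (log2 fold change 0.07 ± 0.04). The groups overlapped in all 3. Among 6 tested genes for other oxidase subunits and relatives, 0 passed with limma, 1 with voom and 1 without DMSO 1, and 2 had an unadjusted p under 0.05.

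Lineage and state genes were compared within each library by subtracting the mean log2 level of the 16 lineage genes. On that scale Arg1 was 0.48 higher in DoxSa than in DMSO, Fcgr1 0.18 higher and Msr1 0.14 higher. Cd9 was at -0.24, Cd163 at -0.16, and Coro1a, Csf1r and Trem2 at -0.15 each. The lineage mean was itself higher in every DoxSa library than in every DMSO library, so an unchanged gene lies below 0 here. Without the subtraction Csf1r and Trem2 had log2 fold changes of 0.00042 and 0.0018. Csf1r, Coro1a and Aif1 are also part of the mean that was subtracted. The relative level of Arg1 was -3.08, -3.18, -3.55 and -3.28 in DoxSa 1 to 4, against -4.02, -3.44, -4.13 and -3.42 in DMSO 1 to 4. Its groups then overlapped, DoxSa 3 lying below DMSO 2 and DMSO 4. All DoxSa libraries were below all DMSO libraries in 6 of the 33 genes (Cd9, Cd163, Csf1r, Trem2, Fcgr3 and Ncf1), where 28.5% of all tested genes were so, and above them in Aif1, where 0.92% were. State genes had a median log2 fold change of 0.08 with 4 of 17 risen, against 0.14 with 5 of 16 risen for lineage genes. Of all tested genes 3.88% rose. The difference between the classes was not tested.

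In the 7 further lists of macrophage genes, 0 genes fell in limma, and voom called 1 lower, in the list of resident macrophages; an unadjusted p under 0.05 with a lower level was seen for 3 genes of that list and 1 of the identity list. Over all tested genes 3.88% rose, 2.02% fell and 56.7% had a log2 fold change above 0. All 7 lists were chosen with earlier results of these data known, so their counts are descriptions and not tests of the lists. The largest of the 7 lists held 28 tested genes of macrophage and myeloid identity. Of these 5 rose and 26 had a log2 fold change above 0, with a median of 0.10. Those that rose were Ctss, the lysosomal protease cathepsin S, with 466 ± 11.0 FPKM in DoxSa and 395 ± 26.5 FPKM in DMSO, Cd14, the co-receptor for bacterial lipopolysaccharide, with 31.6 ± 3.49 FPKM in DoxSa and 24.2 ± 1.93 FPKM in DMSO, Plek, the protein kinase C substrate pleckstrin, the kinase gene Lyn, and Lgals3 (galectin 3). Their adjusted p-values ran from 0.0139 for Ctss to 0.0455 for Lgals3. The count was 3 with quantile normalization, 8 with voom, 0 without the filter, 2 without DMSO 2, DoxSa 1 or DoxSa 2, and 3 without DMSO 4 or DoxSa 3. Ctss and Cd14 kept their calls in 13 of 14 alternatives, Plek in 10, Lyn in 7 and Lgals3 in 3. Among growth factor genes of the lineage, Csf1, the ligand of the CSF1 receptor, rose, with 156 ± 1.58 FPKM in DoxSa and 143 ± 2.48 FPKM in DMSO and a log2 fold change of 0.12 ± 0.03 (adjusted p = 0.0303). Il34, the other ligand of that receptor, did not pass at 2.68 ± 0.393 FPKM in DoxSa and 3.15 ± 0.345 FPKM in DMSO. Csf2rb, the shared receptor chain for GM-CSF, interleukin 3 and interleukin 5, rose with a log2 fold change of 0.26 ± 0.05 (adjusted p = 0.0161), so 2 of the 5 tested genes of that list rose. That count was 1 under the replicate block, under median-of-ratios scaling and without the filter, 1 without DMSO 1, DMSO 2, DMSO 3, DoxSa 2, DoxSa 3 or DoxSa 4, and 0 without DoxSa 1. Csf1 kept its call in 5 of 14 alternatives, and in 1 of the 8 fits with a library left out. Csf2rb kept its call in 12 of 14, the exceptions being no filter and the fit without DoxSa 1.

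Trem2 and Cd9 are usually joined to the genes of lipid-associated macrophages. In a further list of 15 tested genes of that kind 4 rose, where 3.88% of all tested genes did so. Spp1, the secreted phosphoprotein osteopontin, was at 519, 471, 383 and 407 FPKM in DoxSa 1 to 4, against 231, 217, 227 and 222 FPKM in DMSO 1 to 4. The lowest DoxSa library was far above the highest DMSO library, and the log2 fold change was 0.98 ± 0.08 (adjusted p = 9.53e-05). Gpnmb, a lysosomal glycoprotein of lipid-laden macrophages, was at 64.6, 52.7, 54.3 and 52.1 FPKM in DoxSa 1 to 4, against 43.3, 38.2, 37.6 and 42.2 FPKM in DMSO 1 to 4. Its groups did not overlap and DoxSa 1 was highest, with a log2 fold change of 0.46 ± 0.07 (adjusted p = 0.00344). Ctsl (cathepsin L) and Lgals3 were the other two, and the count stayed within 1.5 times under all 14 alternatives. Several genes of this list, such as Fabp4 and Lpl, are also adipocyte genes.

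In the list of classical activation, 14 of 23 tested genes rose, where 3.88% of all tested genes did so. The list was chosen with earlier results of these data known, so that share describes it and tests nothing. All 23 had a log2 fold change above 0, also after scaling by median of ratios or by quantiles, and the median of 0.30 was the highest of the 7 further lists. Ptgs2, the inducible cyclooxygenase, had 6.01 ± 0.942 FPKM in DoxSa and 1.6 ± 0.186 FPKM in DMSO, a log2 fold change of 1.42 ± 0.09 (adjusted p = 1.97e-05). The chemokine genes Ccl2, Ccl4 and Cxcl10 rose by 0.78 ± 0.11 for Ccl2, 0.47 ± 0.07 for Ccl4 and 1.58 ± 0.26 for Cxcl10, with adjusted p-values of 0.0017 for Ccl2, 0.00374 for Ccl4 and 0.00656 for Cxcl10. Nos2, the inducible nitric oxide synthase that shares its substrate with the Arg1 product, had 5.74 ± 0.888 FPKM in DoxSa and 3.87 ± 0.647 FPKM in DMSO (log2 fold change 0.47 ± 0.11, adjusted p = 0.0274). The Nos2 groups overlapped, with 4.53 FPKM in DoxSa 1 and 4.60 FPKM in DMSO 4. Its call held in 8 of 14 alternatives, and in 3 of the 8 fits with a library left out. Tnf and Il1b, cytokine genes of the same state, did not pass, with 4.51 ± 0.924 FPKM in DoxSa and 3.30 ± 0.631 FPKM in DMSO for Tnf and 1.31 ± 0.160 FPKM in DoxSa and 1.08 ± 0.179 FPKM in DMSO for Il1b. The count of 14 was 3 without the filter, 7 without DMSO 2 or DoxSa 2, and 9 without DMSO 3 or DoxSa 3. Adipocytes and preadipocytes can also express several of these genes, and which cells the RNA came from was not tested.

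Of 8 tested genes of alternative activation, to whose textbook list Arg1 and Mrc1 belong, 2 rose, where 3.88% of all tested genes did so. The median of the 8 was -0.03. Il4ra, the interleukin 4 receptor chain, had 90.5 ± 3.85 FPKM in DoxSa and 77.6 ± 3.67 FPKM in DMSO (adjusted p = 0.0135), and Tgm2, transglutaminase 2, had 78.7 ± 2.90 FPKM in DoxSa and 70.9 ± 2.37 FPKM in DMSO (adjusted p = 0.0405). Neither gene is restricted to macrophages. The count was 1 with either scaling and with the replicate block, 0 without the filter, and 1 without DMSO 2, DMSO 3, DMSO 4, DoxSa 1, DoxSa 2 or DoxSa 3. Il4ra kept its call in 13 of 14 alternatives and Tgm2 in 4. Of 12 tested genes of resident macrophages, 6 had a log2 fold change above 0, against 56.7% of all tested genes. The median was 0.02. Rises were seen in 2 of the 12, where 3.88% of all tested genes rose. These were Pf4, the chemokine CXCL4, with 214 ± 4.83 FPKM in DoxSa and 184 ± 8.26 FPKM in DMSO (adjusted p = 0.0082), and Cd209f, a C-type lectin, with 16.5 ± 2.13 FPKM in DoxSa and 11.9 ± 2.03 FPKM in DMSO (adjusted p = 0.0379). Pf4 kept its call in all 14 alternatives. Cd209f kept it in 6 of 14, and lost it with quantile normalization, without the filter, and without DMSO 1, DMSO 4, DoxSa 1, DoxSa 2, DoxSa 3 or DoxSa 4.

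**Figure D4:**
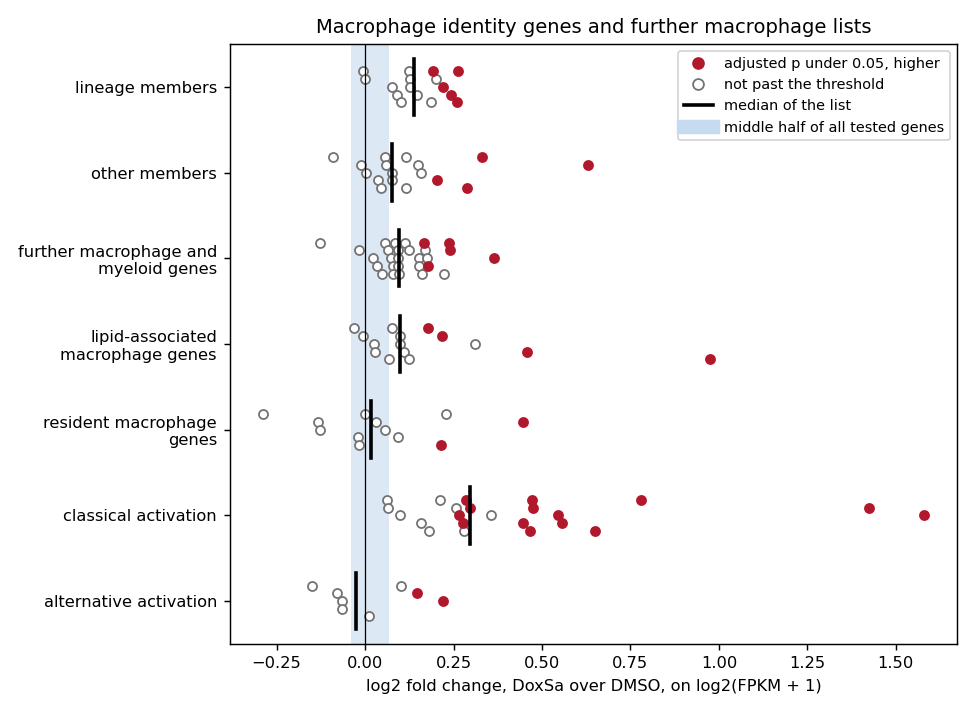
Log2 fold change of DoxSa over DMSO on log2(FPKM + 1) for the tested genes of each list, 1 point a gene, filled red where the adjusted p was under 0.05, with the median of each list as a black bar and the band between the quartiles of all tested genes in blue. The median was 0.14 for lineage genes, 0.08 for the other macrophage genes described first, 0.30 for classical activation and -0.03 for alternative activation.

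Markers of lymphocytes and mast cells were near 0, so the leukocyte genes Ptprc, Cd52, Cd53, Lcp1, Coro1a and Laptm5 stood beside little RNA of those cells. The 5 T and NK cell markers in the table summed to 0.0697 to 0.298 FPKM in DoxSa and 0.0708 to 0.24 FPKM in DMSO, and 3 more (Cd3d, Trac and Cd8a) had no row in the table. The 4 B cell markers summed to at most 0.0967 FPKM in DoxSa and 0.0348 FPKM in DMSO, and the 4 mast cell markers to at most 0.105 FPKM in DoxSa and 0.113 FPKM in DMSO, with Ms4a1 of the B cell list and Mcpt4 of the mast cell list having no row. Dendritic cell markers summed to 0.823 to 0.981 FPKM in DoxSa and 0.576 to 0.944 FPKM in DMSO, and markers of neutrophils, which also express Lyz2, to 3.33 to 5.81 FPKM in DoxSa and 3.13 to 5.16 FPKM in DMSO; Cd209a of the first list and Retnlg of the second had no row. Endothelial markers summed to 1.33 to 1.75 FPKM in DoxSa and 0.888 to 1.3 FPKM in DMSO. The groups did not overlap in this low sum, DoxSa 4 lying just above DMSO 3, but the difference was not tested. Of the 6 markers 1 passed the filter, and it was not called and overlapped between the groups. The part of this sum in the results was not tested. Of 6 tested preadipocyte and fibroblast markers, 1 fell (Pdgfrb), where 2.02% of all tested genes did so. Cd34 was lower at an unadjusted p under 0.05. The log2 fold changes were below 0 in 5 of the 6, also after either scaling, with a median of -0.14. Of all tested genes 56.7% had a log2 fold change above 0. The markers of this list summed to 1321 to 1505 FPKM in DoxSa and 1439 to 1564 FPKM in DMSO. The part of these mostly lower levels in the results was not tested. Mesothelial markers summed to 11.6 to 16.2 FPKM in DoxSa and 16.8 to 17.3 FPKM in DMSO, nearly all of it from Krt19, and the part of that difference in the results was not tested.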

How the data were processed

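The 34 genes, the other lists and their roles were chosen with earlier results of these data known. Libraries were assigned to DoxSa or DMSO from the labels. The authors deposited FPKM per gene in 1 table, made with HISAT2 and HTSeq on the build GRCm39, per the submitters' processing notes; versions, annotation, strand setting and the treatment of shared reads were not stated. TRIzol RNA went into VAHTS Universal V6 libraries, per the labels' protocols. FPKM has no correction for abundant genes that take up much of a library, so a change in such genes moves the values of all others.

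FPKM values stepped by the worth of 1 read, which gave back library totals and whole reads (within 0.001 of a whole number) for 12060 of 12060 tested genes. No pair of libraries of 1 group agreed within sampling noise, so none was merged as a repeat deposit, which does not show that they are separate cultures. The main test was limma 3.58.1 in R 4.3.3 (lmFit, eBayes with trend, two-sided) on log2(FPKM + 1), a scale that understates changes of low genes, for genes averaging 0.5 FPKM or more, with no covariate and no further scaling. P-values were adjusted over all tested genes by the Benjamini-Hochberg method. The 14 alternatives were median-of-ratios scaling, quantile normalization, a pseudocount of 0.1, no filter on low values, voom of limma on the recovered reads, a replicate block, and leaving out each of the 8 libraries. The procedure was also run on simulated reads, with 1 dispersion value for all genes and no shift shared by the genes of a library. In the real data DMSO 2 and DMSO 4 were low together in the lineage genes. That run therefore does not show how the test behaves on these libraries. Genes named are all 34, up to 4 called genes of each of the 7 further lists by adjusted p, and Csf1, Il34, Gpnmb, Nos2, Tnf and Il1b whatever their result; Krt19, Pdgfrb, Cd34, Cidec, Fabp4, Lpl, the near copies and the genes of the other observations were named after their values were seen, except that markers without a row were named for that reason. Other steps used Python 3.11.15, numpy 2.4.6, pandas 2.3.3 and matplotlib 3.10.9.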

Additional observations from a re-analysis of the deposited data

Results flagged for a closer look

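In 3 of 116 groups of 4 libraries, 1 library stood far from the other libraries of its group, where chance flags about 1 in 20 groups. Cd53 was at 43.34 FPKM in DoxSa 3, against 48.75 to 49.13 FPKM in the other DoxSa libraries, and the log2 fold change was 0.29 without DoxSa 3. Gpnmb was at 64.56 FPKM in DoxSa 1, against 52.15 to 54.27 FPKM in the other DoxSa libraries, and the call held without it. Lgals3 was at 445 FPKM in DMSO 2, against 480.7 to 485.8 FPKM in the other DMSO libraries, and its call was lost without DMSO 2 (adjusted p = 0.125 in limma) and held in 3 of 14 alternatives.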

How the results depend on the processing

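The count of genes that rose over all tested genes was 468, 158 without the filter on low values and 233 to 490 with 1 library left out, and of those that fell 244, 108 without the filter and 152 to 235 with 1 left out. Quantile normalization gave 384 genes that rose and 316 that fell. Of the macrophage genes 9 rose, against 4 with median-of-ratios scaling, 5 with quantile normalization, 0 without the filter and 2 to 11 with 1 library left out. Of lineage genes 5 rose, against 2, 3 and 0 under those settings, 3 with the replicate block and 1 to 8 with 1 left out. Of state genes 4 rose, against 2, 2 and 0, and 1 to 3 with 1 left out. Without the filter 15 of the 34 genes had an unadjusted p under 0.05, a count not made there over all genes. Voom called 11 of the macrophage genes, where 5.2% of all tested genes were called higher. Libraries of the same replicate number did not deviate together (correlations of deviations from -0.10 to 0.07, and DoxSa 2 nearest to DMSO 1). That cannot show whether the samples were paired. The replicate block gave 6 macrophage genes that rose. None fell under any of the 14 alternatives.

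Cd53 was called in 13 of 14 alternatives and Arg1 in 11. Of 462 results of 1 gene under 1 alternative, 378 kept direction and side of the threshold, 61 lost the call, 5 gained it and 18 changed sign, all in genes that were not called; the cause was not tested. Those were Csf1r with median-of-ratios scaling (-0.01402), quantile normalization (-0.02193) and 1 library left out (-0.02854 to 0.03844), Lyz2 with quantile normalization (-0.02283), and Trem2 with median-of-ratios scaling (-0.01269) and 1 left out (-0.02242 to 0.02731). With 1 left out Coro1a ran from -0.0507 to 0.0329, Tyrobp from -0.007331 to 0.1081 and Cd163 from -0.0374 to 0.008964. Depth limits Ccr2, with 5 to 20 reads a library.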

Other observations

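Several macrophage genes of the further lists, chosen here after their values were seen, were abundant and did not pass the threshold. C1qa, C1qb and C1qc, the chains of complement C1q, which resident macrophages secrete, had 552 ± 22.4 FPKM in DoxSa and 507 ± 27.4 FPKM in DMSO for C1qa, 585 ± 17.6 FPKM in DoxSa and 542 ± 27.9 FPKM in DMSO for C1qb and 592 ± 21.6 FPKM in DoxSa and 555 ± 31.2 FPKM in DMSO for C1qc (mean ± SD, n = 4 each), with adjusted p-values of 0.156, 0.165 and 0.279 in limma. Folr2, a folate receptor of resident macrophages, had 179 ± 1.37 FPKM in DoxSa and 173 ± 10.4 FPKM in DMSO (adjusted p = 0.519), and F13a1, a coagulation factor subunit of the same cells, had 351 ± 25.3 FPKM in DoxSa and 343 ± 18.1 FPKM in DMSO (adjusted p = 0.807). In contrast to Adgre1 and Csf1r, Cx3cr1, a chemokine receptor of monocytes, and Itgax, the integrin CD11c, were too low to be tested, as was Ccr2. Cx3cr1 was at 0.110 to 0.123 FPKM in DoxSa, against 0.109 to 0.203 FPKM in DMSO, and Itgax was at 0.105 to 0.282 FPKM in DoxSa, against 0.130 to 0.284 FPKM in DMSO. Of 5 markers of osteoclasts and giant cells, 0 passed in limma or voom, and 2 had an unadjusted p under 0.05. Their summed level was 276 to 373 FPKM in DoxSa and 248 to 386 FPKM in DMSO, most of it from Ctsk and Mmp9, 2 protease genes that other cells also express.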
